A study of Mus musculus with 57 samples.

Results

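Enteric neurons and glia were followed through 31 genes that mark them, of which 30 had a probe set assigned to that gene alone and were measured here, among 22180 genes in all. The genes were chosen from knowledge of these cells, with earlier results of these data known, and each was read from its brightest probe set. They comprised 12 pan-neuronal genes, 12 genes of transmitters, neuropeptides and the proteins that mark neuron subtypes, the regulators Ret and Hand2, the glial genes Sox10, S100b and Gfap, and Ednrb, which precursors of both cell types use. Phox2a, a neuronal transcription factor, shares its probe set with a second gene and was not analysed here. Uchl1 alone had more than 1 probe set.

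The enteric nervous system lies in the gut wall as a myenteric plexus between the muscle layers and a submucosal plexus beneath the mucosa. Its neurons drive contraction with acetylcholine and substance P, relax the muscle with nitric oxide and vasoactive intestinal peptide, and regulate secretion and blood flow, and enteric glia surround the cell bodies and fibres. GDNF acting on Ret and endothelin 3 acting on Ednrb guide the precursors into the gut, and Sox10 maintains the glial lineage.

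The study profiled distal colon and colon tumors of C57BL/6 mice aged 18 to 24 weeks on Affymetrix arrays, 57 samples in 6 groups. Its 2 genotypes were INSRfl/fl mice, called fl/fl here, and villin-CRE-INSR-/- littermates, called knockout, in which Cre under the villin promoter removes the insulin receptor gene from the intestinal epithelium. That promoter is not one of neurons or glia. The treated mice were female and were injected with azoxymethane (AOM), a carcinogen, at 7.4 mg/kg, and drank 3% dextran sulfate sodium (DSS), which injures the colonic lining, for 7 days from week 2, with tissue taken in week 5. Untreated colon comprised 10 fl/fl and 10 knockout samples. Colon after AOM+DSS comprised 10 fl/fl and 10 knockout samples, and AOM+DSS tumors numbered 8 from fl/fl and 9 from knockout mice. The labels do not give the layers of the gut wall taken with a sample, nor whether a tumor and a colon came from the same mouse. No group received AOM or DSS alone, so the agents cannot be told apart.

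Values are log2 expression after RMA, a normalization that makes the arrays' distributions alike. The array medians ran from 5.92 to 6.04, and each array correlated with the others of its group at 0.982 to 0.992 on average. The number of arrays limits the precision. A list of 8 colon epithelium genes averaged 10.77 to 11.48 in every sample, tumors included. Insr, the targeted gene, differed between knockout and fl/fl samples by a log2 difference of -0.94 ± 0.10 (SE) in untreated colon, -0.84 ± 0.10 in AOM+DSS colon and -0.65 ± 0.11 in tumors (limma, adjusted p = 6.71e-09, 2.32e-07 and 0.00234). Of the 30 genes, Elavl4 and Nefm lay in the dimmest 25% of all genes, below a mean log2 of 5.01, where a probe set gives the least room to fall.

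Proximal promoters were available for 22 of the 31 genes in RefSeq (GRCm38.p6). The 4 shown belong to transmitter genes with different calls in tumors: Vip, Tac1 and Dbh fell, and Th, a gene of low signal, did not pass the test. Each run is the 250 bases before the annotated start, 5′ to 3′ on the gene's own strand, and capitals mark the cAMP response element core TGACG or its complement CGTCA, joined where 2 of them form the full element TGACGTCA. Vip is chr10:5638968-5639217 (plus strand), Tac1 is chr6:7554811-7555060 (plus strand), Dbh is chr2:27165257-27165506 (plus strand) and Th is chr7:142899996-142900245 (minus strand). The Vip run ends inside the span listed for the gene, which begins at 5639193, so its positions count from a later start.
Vip: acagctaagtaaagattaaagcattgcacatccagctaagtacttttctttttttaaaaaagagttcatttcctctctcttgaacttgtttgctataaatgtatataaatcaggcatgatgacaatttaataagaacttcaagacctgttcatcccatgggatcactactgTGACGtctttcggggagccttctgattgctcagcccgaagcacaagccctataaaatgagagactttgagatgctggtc
Tac1: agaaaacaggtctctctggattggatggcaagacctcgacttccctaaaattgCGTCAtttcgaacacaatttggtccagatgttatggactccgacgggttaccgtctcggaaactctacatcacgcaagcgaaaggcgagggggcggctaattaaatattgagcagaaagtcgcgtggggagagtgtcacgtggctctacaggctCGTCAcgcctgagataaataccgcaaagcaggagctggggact
Dbh: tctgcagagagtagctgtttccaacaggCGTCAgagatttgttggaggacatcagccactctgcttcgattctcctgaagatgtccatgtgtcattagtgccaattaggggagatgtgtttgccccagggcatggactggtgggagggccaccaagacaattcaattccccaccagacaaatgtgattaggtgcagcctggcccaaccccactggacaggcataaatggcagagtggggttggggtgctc
Th: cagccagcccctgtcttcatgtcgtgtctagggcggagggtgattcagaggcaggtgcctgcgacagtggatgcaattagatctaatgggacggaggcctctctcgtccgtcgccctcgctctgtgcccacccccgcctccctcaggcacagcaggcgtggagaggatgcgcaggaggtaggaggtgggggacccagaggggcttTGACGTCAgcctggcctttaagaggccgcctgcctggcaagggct
The core was searched on both strands, with positions counted back from the start, and began at -79 in Vip, at -197 and -43 in Tac1, and at -222 in Dbh. Th held the full element, starting at -45. The 22 genes had 27 such windows, of which 13 held the core, as did 17.8% of all 32851 windows of this length. The full element was in 2 of the 27, those of Cartpt and Th, and in 1.55% of all windows. A match is a stretch of letters and was not tested as a binding site.

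Tumors held less RNA of most neuronal genes than the AOM+DSS colon. Each genotype's tumors were compared with its own colon, and 23 of the 30 genes were lower and 1, Ret, was higher in fl/fl mice (limma, adjusted p below 0.05), beside 20.2% of all genes lower and 21.0% higher, 41.2% in either direction. In knockout mice 26 were lower and Ret was higher, beside 21.4% and 21.5% of all genes, 42.9% in either direction. With every array shifted to one median, the split over all genes was 5130 higher and 4119 lower in fl/fl mice, in place of 4661 and 4482. In knockout mice that split was 5678 higher and 4026 lower, in place of 4761 and 4750. The median log2 change over the 30 genes was -0.67 in fl/fl and -0.65 in knockout mice, where that of all genes was 0.02 and 0.00. All tumors lay below all AOM+DSS colons for 14 of the 30 genes in each genotype, beside 6.38% of all genes in fl/fl and 7.24% in knockout mice. None of the 30 stood wholly above colon in knockout tumors, beside 7.46% of all genes. In whole tissue, fewer cells of a type and less RNA per cell cannot be told apart.

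**Figure D1:**
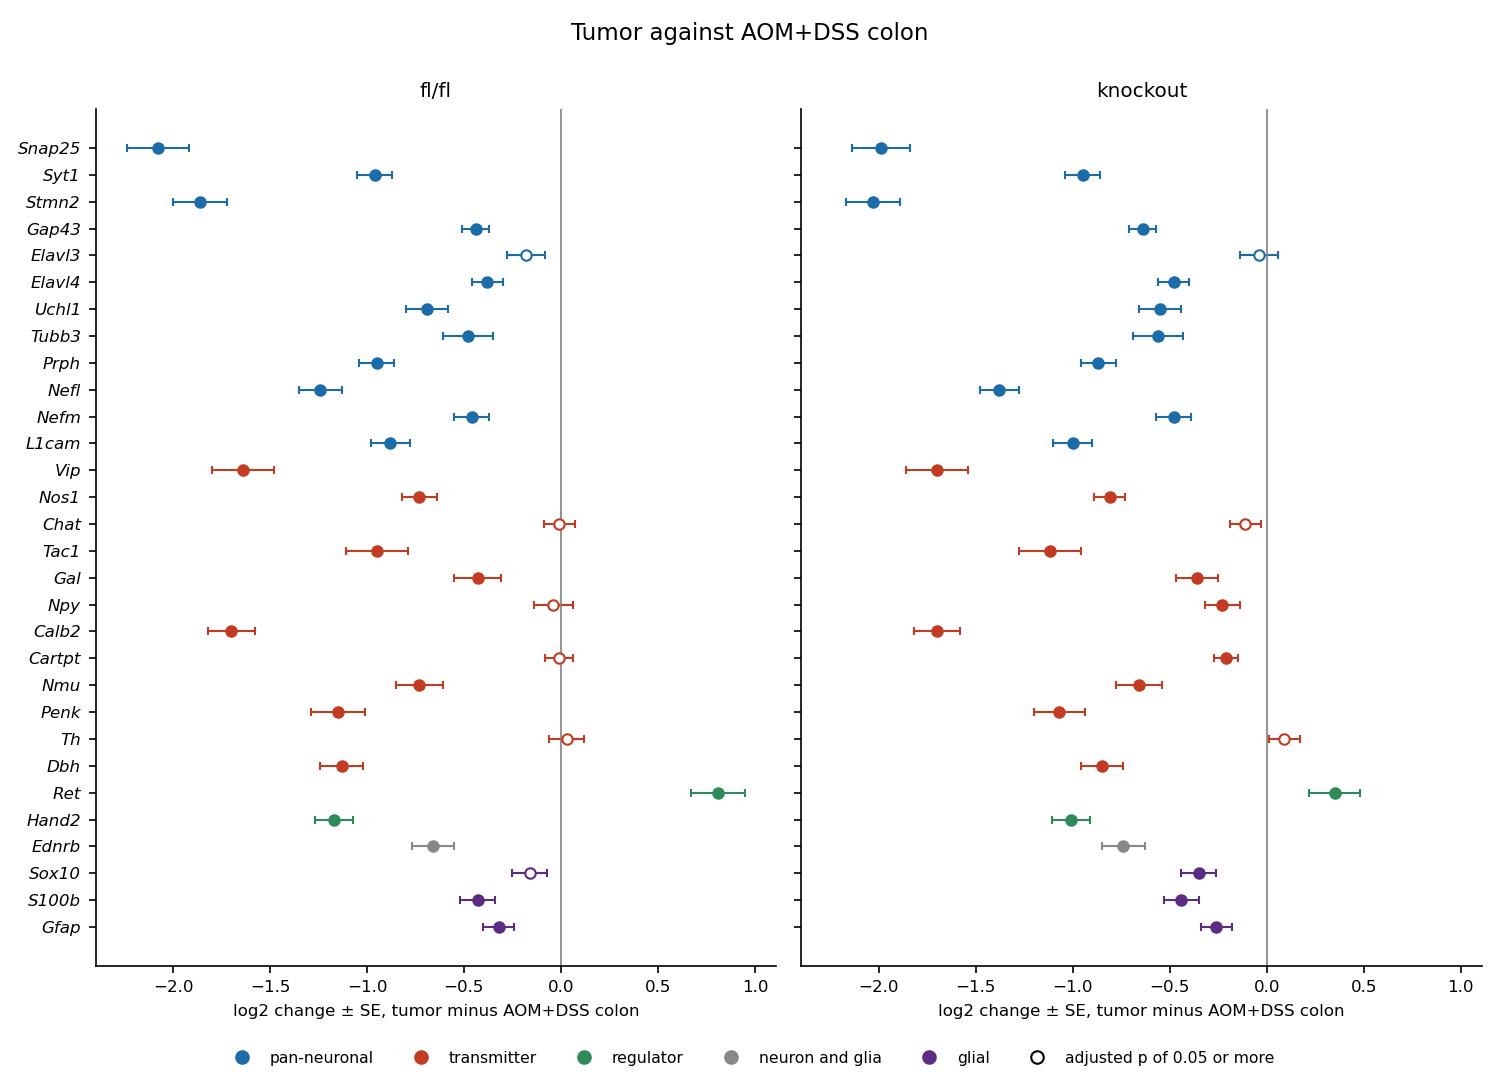
Log2 change from AOM+DSS colon to tumor for the 30 genes (points, with SE as bars), fl/fl mice on the left and knockout mice on the right, coloured by class and open where the adjusted p was 0.05 or more. Snap25, Stmn2, Calb2 and Vip lie farthest to the left, Th and Chat lie close to the zero line, and Ret lies to the right of that line in both genotypes.

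Among the pan-neuronal genes, 11 of 12 fell in tumors of each genotype, with a median log2 change of -0.79 in fl/fl and -0.76 in knockout mice. Snap25, a SNARE protein that fuses synaptic vesicles with the membrane, measured 8.20 to 9.01 (median 8.75) in fl/fl AOM+DSS colon and 6.21 to 7.16 (median 6.56) in fl/fl tumors. In knockout mice it measured 8.26 to 9.16 (median 8.68) in colon and 5.81 to 7.51 (median 6.80) in tumors. The ranges stood apart in both genotypes, by a log2 change of -2.08 ± 0.16 (SE) in fl/fl and -1.99 ± 0.15 in knockout mice, so that 23.7% and 25.1% of the colon level remained (limma, adjusted p = 7.16e-17 and 9.66e-17). Snap25 spread most widely in knockout tumors, with an SD of 0.63 against 0.32 in fl/fl tumors. Stmn2, a regulator of microtubules in growing axons, measured 8.17 to 9.28 (median 9.07) in fl/fl colon and 6.57 to 7.51 (median 6.88) in fl/fl tumors, and 8.29 to 9.24 (median 8.77) against 6.12 to 7.40 (median 6.65) in knockout mice. Its ranges stood apart as well, with changes of -1.86 ± 0.14 and -2.03 ± 0.14 (adjusted p = 1.16e-16 and 1.08e-18).

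All 3 filament genes of axons fell in both genotypes. Nefl, the light neurofilament chain, measured 5.84 to 6.47 (median 6.21) in fl/fl AOM+DSS colon and 4.38 to 5.33 (median 5.06) in tumors, and 5.97 to 6.61 (median 6.26) against 4.63 to 5.25 (median 4.89) in knockout mice. No tumor reached the level of any colon, with changes of -1.24 ± 0.11 and -1.38 ± 0.10 (adjusted p = 1.17e-14 and 6.43e-17). Nefm, the medium chain, changed by -0.46 ± 0.09 and -0.48 ± 0.09, and its ranges overlapped in both genotypes. Prph, the peripheral neurons' intermediate filament peripherin, changed by -0.95 ± 0.09 and -0.87 ± 0.09 with ranges apart.

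The other genes shared by most neurons had smaller changes than Snap25 and Stmn2. Syt1, the calcium sensor of vesicle release, changed by -0.96 ± 0.09 and -0.95 ± 0.09, and L1cam, an adhesion molecule of axons, by -0.88 ± 0.10 in fl/fl mice and to 49.9% of its colon level in knockout mice, both with ranges apart in each genotype. Gap43, a growth cone protein, changed by -0.44 ± 0.07 and -0.64 ± 0.07, also with ranges apart. Uchl1, the ubiquitin hydrolase known as PGP9.5, changed by -0.69 ± 0.11 and -0.55 ± 0.11, and Tubb3, the neuronal beta-tubulin, by -0.48 ± 0.13 and -0.56 ± 0.13, with overlapping ranges. Of the Hu RNA-binding proteins of neurons, Elavl4 changed by -0.38 ± 0.08 and -0.48 ± 0.08 and passed in both genotypes, whereas Elavl3 measured -0.18 ± 0.10 and -0.04 ± 0.10 and passed in neither (adjusted p = 0.156 and 0.815).

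Most transmitter and subtype genes fell too. In fl/fl tumors 8 of 12 fell and in knockout tumors 10 of 12, none rose, and the median changes were -0.73 and -0.74. Vip, the relaxant and secretory peptide, measured 8.48 to 9.94 (median 9.40) in fl/fl colon and 7.09 to 8.07 (median 7.83) in fl/fl tumors, and 9.12 to 9.84 (median 9.62) against 7.05 to 8.47 (median 7.84) in knockout mice. All tumors were below all colons, by -1.64 ± 0.16 and -1.70 ± 0.16 (adjusted p = 7.27e-13 and 6.74e-14). Calb2, the calcium-binding protein calretinin of excitatory neurons, measured 5.80 to 6.64 (median 6.44) in fl/fl colon and 4.18 to 5.05 (median 4.73) in tumors, and 5.99 to 6.87 (median 6.12) against 3.95 to 5.10 (median 4.61) in knockout mice. The groups did not overlap, and the change was -1.70 ± 0.12 in each genotype (adjusted p = 4.17e-18 and 9.94e-19). Nos1, the neuronal nitric oxide synthase of inhibitory neurons, changed by -0.73 ± 0.09 and -0.81 ± 0.08 with ranges apart.

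Penk, the enkephalin precursor, measured 8.23 to 9.10 (median 8.91) in fl/fl AOM+DSS colon and 7.45 to 7.97 (median 7.64) in fl/fl tumors. In knockout mice it measured 8.82 to 9.07 (median 8.95) in colon and spread from 6.77 to 8.69 (median 7.78) in tumors. Ranges stood apart in both, with changes of -1.15 ± 0.14 and -1.07 ± 0.13. Tac1, the substance P precursor, changed by -0.95 ± 0.16 and -1.12 ± 0.16, with overlapping ranges. The peptide genes Nmu (neuromedin U) and Gal (galanin) fell as well, Nmu with changes of -0.73 and -0.66 and Gal with changes of -0.43 and -0.36 in fl/fl and knockout mice.

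Of the enzymes that make noradrenaline, Dbh fell in tumors and Th did not pass, a difference that was not itself tested. Dbh, which converts dopamine to noradrenaline, measured 6.08 to 7.13 (median 6.55) in fl/fl colon and 5.07 to 6.02 (median 5.47) in fl/fl tumors, and 6.10 to 6.78 (median 6.56) against 5.37 to 6.23 (median 5.65) in knockout mice. The groups stood apart in fl/fl mice and overlapped in knockout mice, with changes of -1.13 ± 0.11 and -0.85 ± 0.11 (adjusted p = 1.26e-12 and 2.08e-09). Th, the first enzyme of the same route, measured 5.07 to 5.54 (median 5.35) and 5.12 to 5.54 (median 5.41) in fl/fl colon and tumors, and 4.90 to 5.72 (median 5.32) and 5.28 to 5.74 (median 5.43) in knockout mice. Its ranges overlapped throughout, with changes of 0.03 ± 0.09 and 0.09 ± 0.08 and 95% intervals of -0.14 to 0.20 and -0.07 to 0.26. Chat, which makes acetylcholine, measured -0.01 ± 0.08 and -0.11 ± 0.08 and passed in neither genotype. Npy and Cartpt, neuropeptides, measured -0.04 ± 0.10 and -0.01 ± 0.07 in fl/fl mice without passing, and fell in knockout mice with changes of -0.23 and -0.21, calls that were lost when arrays were shifted to one median (adjusted p = 0.107 and 0.0575) or quantile-normalized again (0.18 and 0.119).

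**Figure D2:**
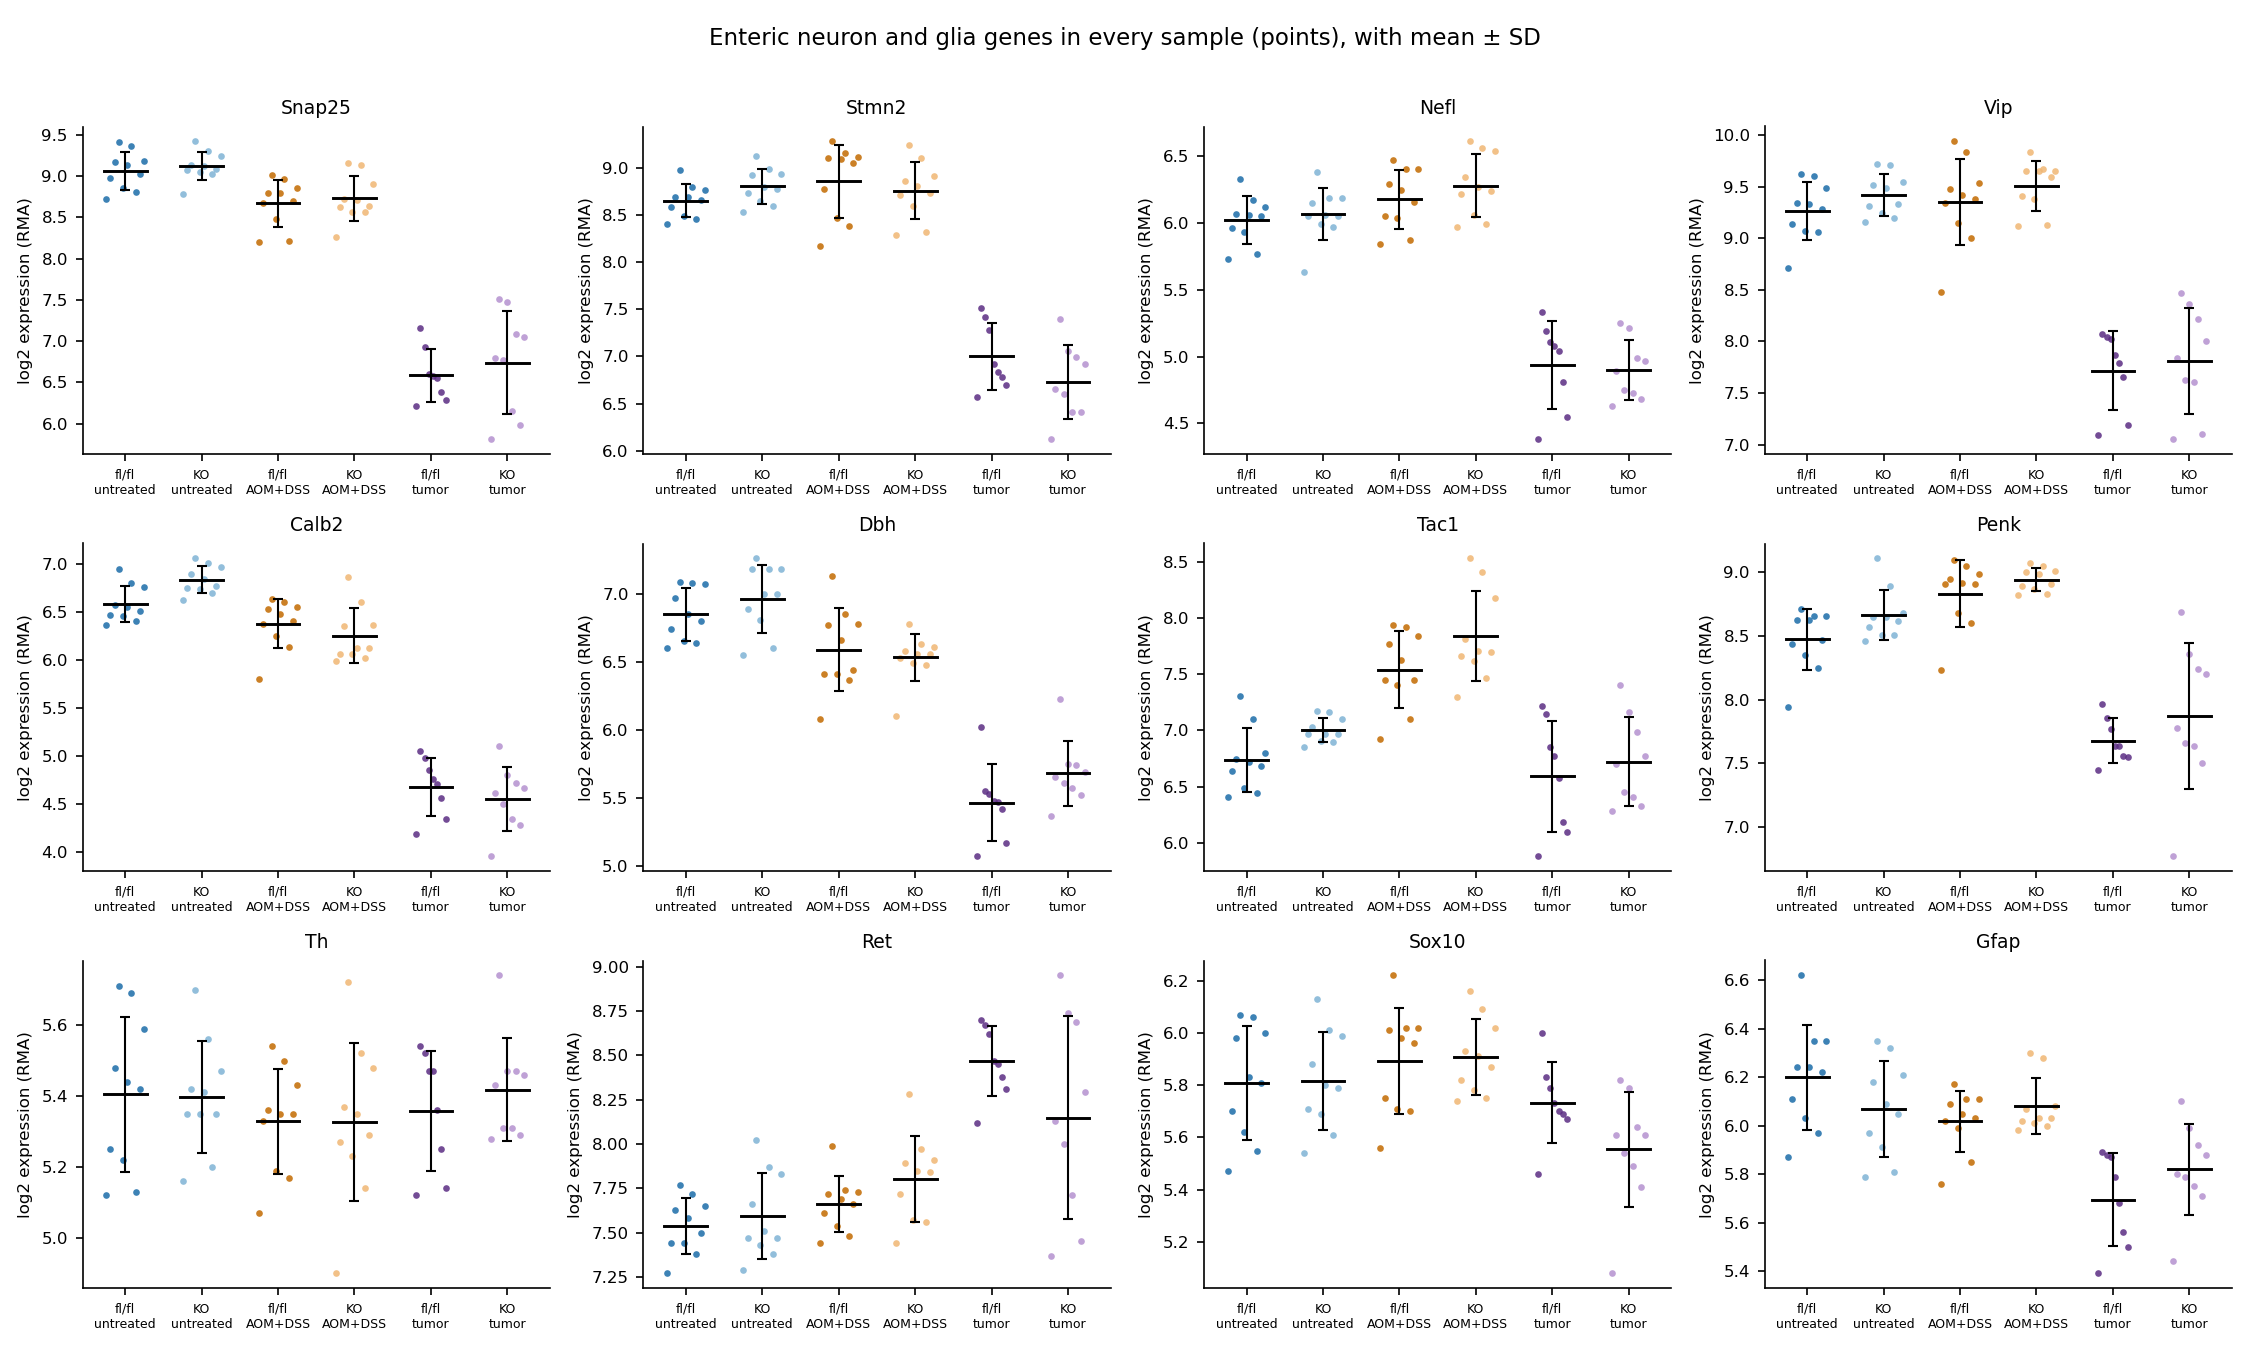
Log2 expression of 12 of the genes in every sample (points), by group, with the mean (line) and SD (bars); each panel has its own axis. Snap25, Stmn2, Nefl, Vip and Calb2 show the tumors below both kinds of colon, Tac1 is highest in AOM+DSS colon, Th shows no separation, and Ret is higher in tumors and most spread in knockout tumors (SD 0.57).

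The regulators of enteric precursors moved in opposite directions. Hand2, a transcription factor required for enteric neurons to mature, measured 7.30 to 7.79 (median 7.59) in fl/fl colon and 6.00 to 6.65 (median 6.51) in fl/fl tumors, and 7.31 to 7.69 (median 7.53) against 5.94 to 6.74 (median 6.53) in knockout mice. All tumors were below all colons, by -1.17 ± 0.10 and -1.01 ± 0.10. Ret, the receptor tyrosine kinase for GDNF family ligands, measured 7.44 to 7.99 (median 7.67) in fl/fl colon and 8.12 to 8.70 (median 8.46) in fl/fl tumors, so that every tumor was above every colon, which held for 5.61% of all genes. The change was 0.81 ± 0.14 (adjusted p = 1.29e-06), or 1.75-fold. In knockout mice Ret measured 7.44 to 8.28 (median 7.85) in colon and 7.37 to 8.95 (median 8.13) in tumors, which overlapped, with a change of 0.35 ± 0.13 (adjusted p = 0.0268). That call was lost when the fit held the compared groups alone (adjusted p = 0.133).

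Of the 9 measured genes of the GDNF, endothelin and neuregulin signals, 4 were lower and 1 higher in fl/fl tumors and 6 were lower and none higher in knockout tumors. Gfra1 and Gfra2, the co-receptors that present GDNF and neurturin to Ret, changed by -1.11 and -1.27 in fl/fl and by -1.20 and -1.38 in knockout mice, opposite to Ret. Gdnf changed by -0.30 and -0.38, and Nrg1, a ligand of the glial receptor Erbb3, was the gene that was higher in fl/fl tumors (0.84 ± 0.17). Ednrb, the endothelin receptor, measured 8.60 to 9.60 (median 8.89) in fl/fl colon and 7.81 to 8.73 (median 8.26) in tumors, and 8.79 to 9.63 (median 9.01) against 8.00 to 8.51 (median 8.34) in knockout mice. It changed by -0.66 ± 0.11 with overlap and by -0.74 ± 0.11 with ranges apart.

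The glial genes had smaller changes than most neuronal genes. Their signal was low, with means in fl/fl AOM+DSS colon of 5.89 for Sox10, 5.22 for S100b and 6.02 for Gfap. Snap25, Stmn2 and Vip averaged 8.67, 8.86 and 9.36 there. Among neuronal genes of lower signal, Elavl3 (5.82) and Nefl (6.18) changed by -0.18 and -1.24 in fl/fl mice. The part of signal level in the difference was not tested. S100b, a calcium-binding protein of glia, measured 4.95 to 5.59 (median 5.17) in fl/fl colon and 4.49 to 5.10 (median 4.76) in fl/fl tumors, and 4.96 to 5.49 (median 5.19) against 4.46 to 5.10 (median 4.79) in knockout mice. Its ranges overlapped, with changes of -0.43 ± 0.09 and -0.44 ± 0.09 (adjusted p = 0.000112 and 4.3e-05). Gfap, the glial intermediate filament, measured 5.76 to 6.17 (median 6.04) and 5.39 to 5.89 (median 5.74) in fl/fl colon and tumors, and 5.98 to 6.30 (median 6.03) and 5.44 to 6.10 (median 5.80) in knockout mice. It changed by -0.32 ± 0.08 and -0.26 ± 0.08, and the knockout call was lost after a second quantile normalization (adjusted p = 0.0631). Sox10, the transcription factor of the glial lineage, measured 5.56 to 6.22 (median 5.97) and 5.46 to 6.00 (median 5.72) in fl/fl mice and 5.74 to 6.16 (median 5.89) and 5.08 to 5.82 (median 5.61) in knockout mice. It overlapped in both, did not pass in fl/fl mice (-0.16 ± 0.09, adjusted p = 0.162) and fell in knockout mice (-0.35 ± 0.09, adjusted p = 0.000543).

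The 3 glial genes had median changes of -0.32 and -0.35, against -0.73 and -0.74 over the 24 pan-neuronal and transmitter genes. Other glial genes had larger changes than these 3. Of 9 further glial genes, 6 were lower and 1 higher in fl/fl tumors and 7 were lower in knockout tumors, with medians of -0.56 and -0.69. Cdh19, a cadherin of the glial lineage, changed by -1.60 and -1.67, and Scn7a, a sodium channel of glia, by -1.59 and -2.12. Gfra3 changed by -1.11 in fl/fl mice and Gpr37l1 by -0.86 in knockout mice. Of 32 further neuronal genes, 24 were lower and 3 higher in fl/fl tumors and 22 lower and 3 higher in knockout tumors, with medians of -0.52 and -0.48. In these further lists the glial median change was thus no smaller than the neuronal one, and the difference between lists was not tested. Htr3a and Chrna3, the serotonin and acetylcholine receptor channels of enteric neurons, changed by -1.55 and -1.49 in fl/fl and by -1.45 and -1.62 in knockout mice. The vesicle and tubulin genes Cadps, Cplx2 and Tubb2b, named after their values were seen, were the 3 that were higher in fl/fl tumors, by 1.46, 0.44 and 0.69, and were higher in knockout tumors by 1.05, 0.46 and 0.64.

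The difference between a neuronal and a glial change was tested within samples for 2 pairs, as the log2 value of the neuronal gene minus that of the glial gene, in 8 permutation tests adjusted together. Only the change of such a difference between groups has a meaning, since 2 probe sets cannot be compared in level. The genes were chosen with earlier results of these data known, and Snap25 had the largest fall of the 30 in fl/fl tumors. Its pair therefore does not stand for neuronal and glial genes at large. Snap25 minus S100b was 3.45 ± 0.33 (SD, n = 10) in fl/fl AOM+DSS colon and 1.79 ± 0.24 (n = 8) in fl/fl tumors, with no overlap, a measured difference of -1.65 (exact permutation test, two-sided, adjusted p = 9.14e-05). In knockout mice it was 3.51 ± 0.30 (n = 10) and 1.96 ± 0.74 (n = 9), again with no overlap, a difference of -1.55 (exact permutation test, adjusted p = 8.66e-05). S100b averaged 4.79 and 4.78 in fl/fl and knockout tumors, below the mean log2 of 5.01 that bounds the dimmest 25% of genes, and the part of that low signal in the difference was not tested. The other pair did not pass: Elavl4 minus Sox10 was -0.99 ± 0.17 and -1.20 ± 0.22 in fl/fl colon and tumors, a difference of -0.22 (exact permutation test, adjusted p = 0.0507), and -0.86 ± 0.17 and -0.99 ± 0.13 in knockout mice, a difference of -0.13 (adjusted p = 0.101, exact). After a second quantile normalization this pair passed in both genotypes, at -0.28 and -0.18 (exact permutation test, adjusted p = 0.0132 and 0.0317).

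**Figure D3:**
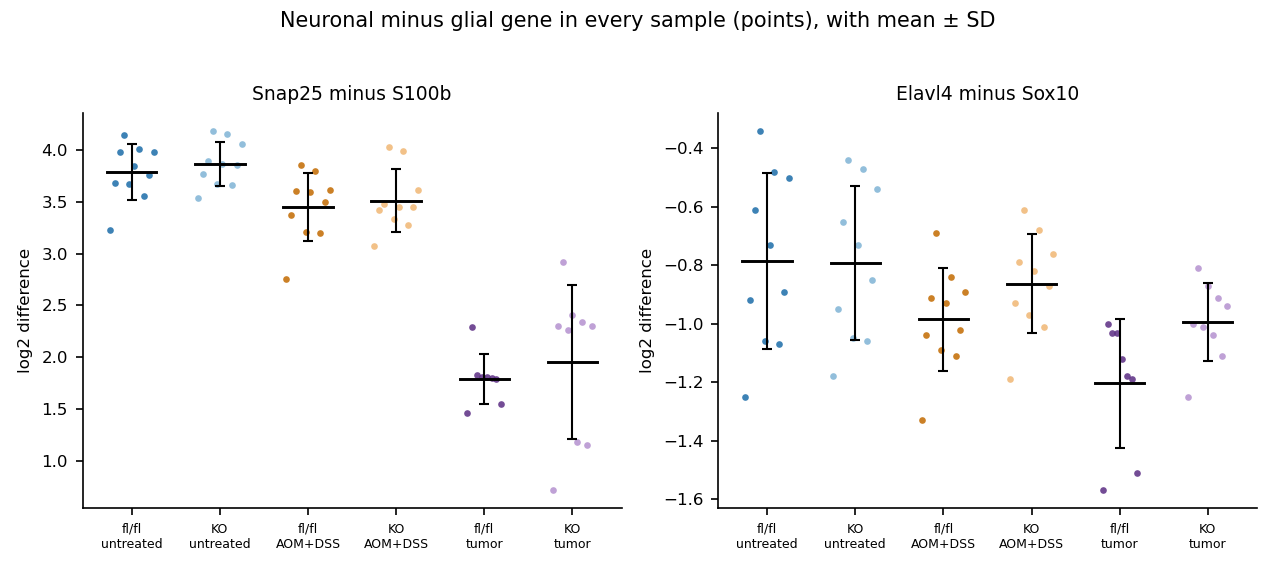
Log2 difference between a neuronal and a glial gene in every sample (points), by group, with the mean (line) and SD (bars). Snap25 minus S100b is at most 2.93 in any tumor and at least 2.75 in any colon, while Elavl4 minus Sox10 overlaps between all groups.

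Genes of other cells of the gut wall moved with these changes. All 12 smooth muscle genes were lower in tumors of both genotypes with ranges apart, with medians of -1.70 and -1.61. The mean of the list was 10.49 to 11.23 in fl/fl AOM+DSS colon and 8.86 to 9.86 in fl/fl tumors, and 10.42 to 11.04 and 8.38 to 9.85 in knockout mice. Enteroendocrine cells are hormone-secreting epithelial cells that share several of the 30 genes with neurons. The genes of their list were lower too: 10 of 13 fell in fl/fl and 13 of 13 in knockout tumors, with medians of -1.37 and -1.19. The list mean was 7.63 to 8.23 and 6.22 to 7.02 in fl/fl colon and tumors, and 7.46 to 8.04 and 6.02 to 6.92 in knockout mice. Of 5 genes of interstitial cells of Cajal, the pacemaker cells, 5 and 4 fell. Fibroblast genes were lower in 6 of 8 and 7 of 8, with medians of -0.38 and -0.70, and endothelial genes in 4 of 6 and 5 of 6, with medians of -0.33 and -0.43.

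With the smooth muscle mean of each array as a covariate, 8 of the 30 genes passed in fl/fl tumors, 7 lower and 1 higher, and 10 passed in knockout tumors, all lower. Over all genes 8.99% and 9.19% passed in that fit, so the number of calls dropped across the array and not among these genes alone. Snap25 changed by -0.86 ± 0.27 and -0.79 ± 0.26 in that fit, and Vip by -1.26 ± 0.33 and -1.32 ± 0.32. Dbh changed by -1.30 ± 0.23 and -1.02 ± 0.23, Calb2 by -1.26 ± 0.24 and -1.27 ± 0.23, and Tac1 by -1.23 ± 0.33 and -1.39 ± 0.32, each passing in both genotypes, as did Prph and Ednrb. Stmn2, Nefl and L1cam passed in knockout mice alone, a difference between genotypes that was not tested in this fit. Ret was higher by 1.02 ± 0.28 in fl/fl mice (adjusted p = 0.0108) and did not pass in knockout mice (0.56 ± 0.27, adjusted p = 0.227). Hand2 dropped out in both, at -0.30 ± 0.15 and -0.15 ± 0.15, and none of the 3 glial genes passed, with Gfap at 0.06 ± 0.16 and 0.12 ± 0.16.

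With the enteroendocrine mean as the covariate, a fit chosen after seeing the data, 14 of the 30 genes passed in each genotype, 13 lower and Ret higher, beside 20.4% of all genes in fl/fl and 25.3% in knockout mice. Dbh measured -0.22 ± 0.21 and 0.01 ± 0.20 in that fit, and Tac1 -0.38 ± 0.35 and -0.58 ± 0.33, and neither passed. Snap25 changed by -1.80 ± 0.35 and -1.73 ± 0.33, Stmn2 by -2.40 ± 0.31 and -2.53 ± 0.29 and Hand2 by -0.95 ± 0.21 and -0.80 ± 0.20, all of which passed. Snap25, Prph, Vip and Calb2 passed with either covariate in both genotypes. In the enteroendocrine fit the changes were -1.23 ± 0.35 and -1.32 ± 0.33 for Vip and -1.10 ± 0.25 and -1.14 ± 0.24 for Calb2. Either list differs between tumor and colon with no overlap, so these fits rest on the spread within groups. What part each cell type had in the falls was not tested beyond them.

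Some of the genes also varied with smooth muscle among samples of a group. Correlations were taken over the 57 samples after group means were removed. With the smooth muscle mean, 9 of the 30 genes had a Pearson r of 0.3 or more, beside 6.61% of all genes. None of the 30 had -0.3 or less, beside 1152 of all 22180 genes. By permutation within groups, adjusted over the 30 genes, 7 passed, all positive: 4 of 12 pan-neuronal genes, 1 of 12 transmitter genes, Hand2 and Gfap. Hand2 had r = 0.69 and Spearman's rho = 0.61 (permutation test, raw p = 1e-05, the smallest these permutations can give, adjusted p = 0.0003). Stmn2 had r = 0.66 and rho = 0.60 (permutation test, raw p = 2e-05, adjusted p = 0.0003), Snap25 r = 0.59 and rho = 0.47 (raw p = 0.00038, adjusted p = 0.00285), and Nefl r = 0.51 and rho = 0.53 (raw p = 0.00021, adjusted p = 0.0021). Syt1 (r = 0.42), Nos1 (r = 0.33) and Gfap (r = 0.36) were the other genes that passed (permutation test, raw p = 0.00386, 0.00383 and 0.00964, adjusted p = 0.0193, 0.0193 and 0.0413). Without the 2 tumors farthest from the median of the smooth muscle mean (fl/fl replicate 1 and knockout replicate 3), r was 0.58 for Hand2, 0.61 for Stmn2 and 0.48 for Snap25, and 10 genes passed. Within the 40 colons r was 0.58, 0.60 and 0.32, and within the 17 tumors 0.79, 0.75 and 0.72. Within the colons Snap25 and Gfap did not pass (permutation test, adjusted p = 0.213 and 0.138). Within the tumors Nefl, Syt1, Gfap and Nos1 did not pass (adjusted p = 0.0964, 0.267, 0.267 and 0.381), and Nos1 did not pass over all samples after a second quantile normalization (adjusted p = 0.0707). Dbh (r = -0.12), Tac1 (-0.13) and Tubb3 (-0.02) did not pass.

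**Figure D4:**
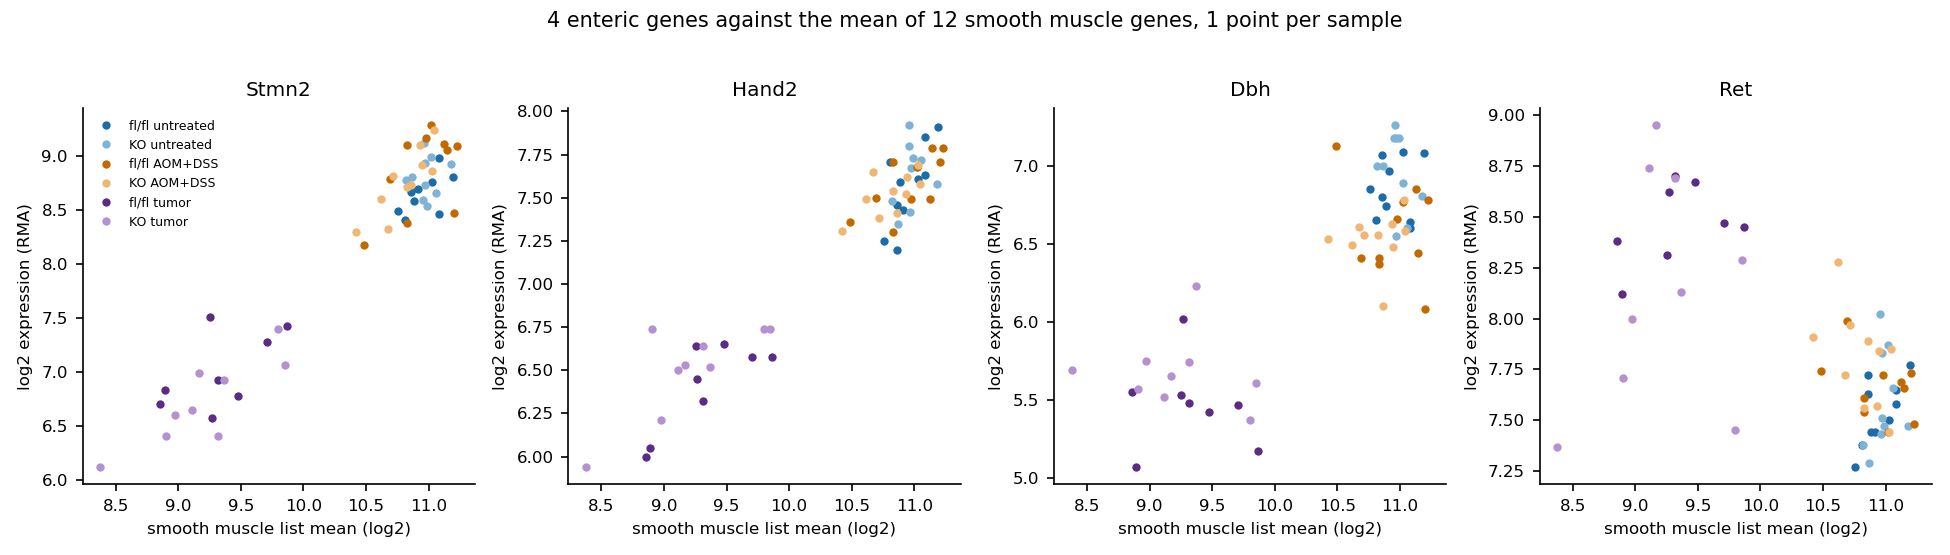
Log2 expression of Stmn2, Hand2, Dbh and Ret against the mean log2 expression of 12 smooth muscle genes, 1 point per sample, coloured by group. Tumors lie to the left of all colons; Stmn2 and Hand2 climb with the smooth muscle mean among the tumors (r = 0.75 and 0.79 with group means removed), and Dbh does not (r = -0.11).

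AOM+DSS colon differed from untreated colon in few of the genes. In fl/fl mice 2 were higher, Tac1 and Penk, and 2 lower, Snap25 and Nmu, beside 22.7% of all genes in either direction (12.2% higher, 10.5% lower). In knockout mice 2 were higher, Tac1 and Ednrb, and 6 lower, Snap25, Uchl1, Prph, Calb2, Nmu and Dbh, beside 30.2% of all genes (16.0% and 14.2%). The 4 and 8 of 30 genes that passed were no larger a share than over all genes. None of the 30 had ranges apart in fl/fl mice, beside 0.821% of all genes wholly higher and 0.234% wholly lower. In knockout mice Tac1 alone did, beside 3.68% and 1.06%. The AOM+DSS colons are the same samples that the tumors were compared with, so the changes in both comparisons share them. The median change was -0.07 and -0.04 over the 30 genes and -0.04 in both genotypes over all genes. With arrays shifted to one median, 7 of the 30 passed in fl/fl mice, and the split over all genes was 2165 higher and 3839 lower in place of 2715 and 2329 in fl/fl mice, and 3090 and 4276 in place of 3538 and 3154 in knockout mice. After a second quantile normalization it was 2254 and 2984 in fl/fl and 3254 and 3975 in knockout mice.

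Tac1 had the largest change of the 30 genes. It measured 6.41 to 7.31 (median 6.70) in untreated and 6.92 to 7.94 (median 7.54) in AOM+DSS colon of fl/fl mice, and 6.85 to 7.17 (median 6.97) against 7.30 to 8.53 (median 7.71) in knockout mice. The groups overlapped in fl/fl mice and stood apart in knockout mice. The change was 0.81 ± 0.15 and 0.84 ± 0.15, or 1.75-fold and 1.79-fold (limma, adjusted p = 7.23e-05 and 1.59e-05). Penk measured 7.94 to 8.71 (median 8.55) and 8.23 to 9.10 (median 8.91) in fl/fl mice, with overlap, and changed by 0.36 ± 0.13 (adjusted p = 0.0332), a call lost after a second quantile normalization (adjusted p = 0.0754). In knockout mice it measured 0.28 ± 0.13 and did not pass (adjusted p = 0.0951), though it did with array weights (adjusted p = 0.0172). Ednrb was higher by 0.34 ± 0.11 in knockout mice (adjusted p = 0.00925) and measured 0.26 ± 0.11 in fl/fl mice (adjusted p = 0.0679).

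**Figure D5:**
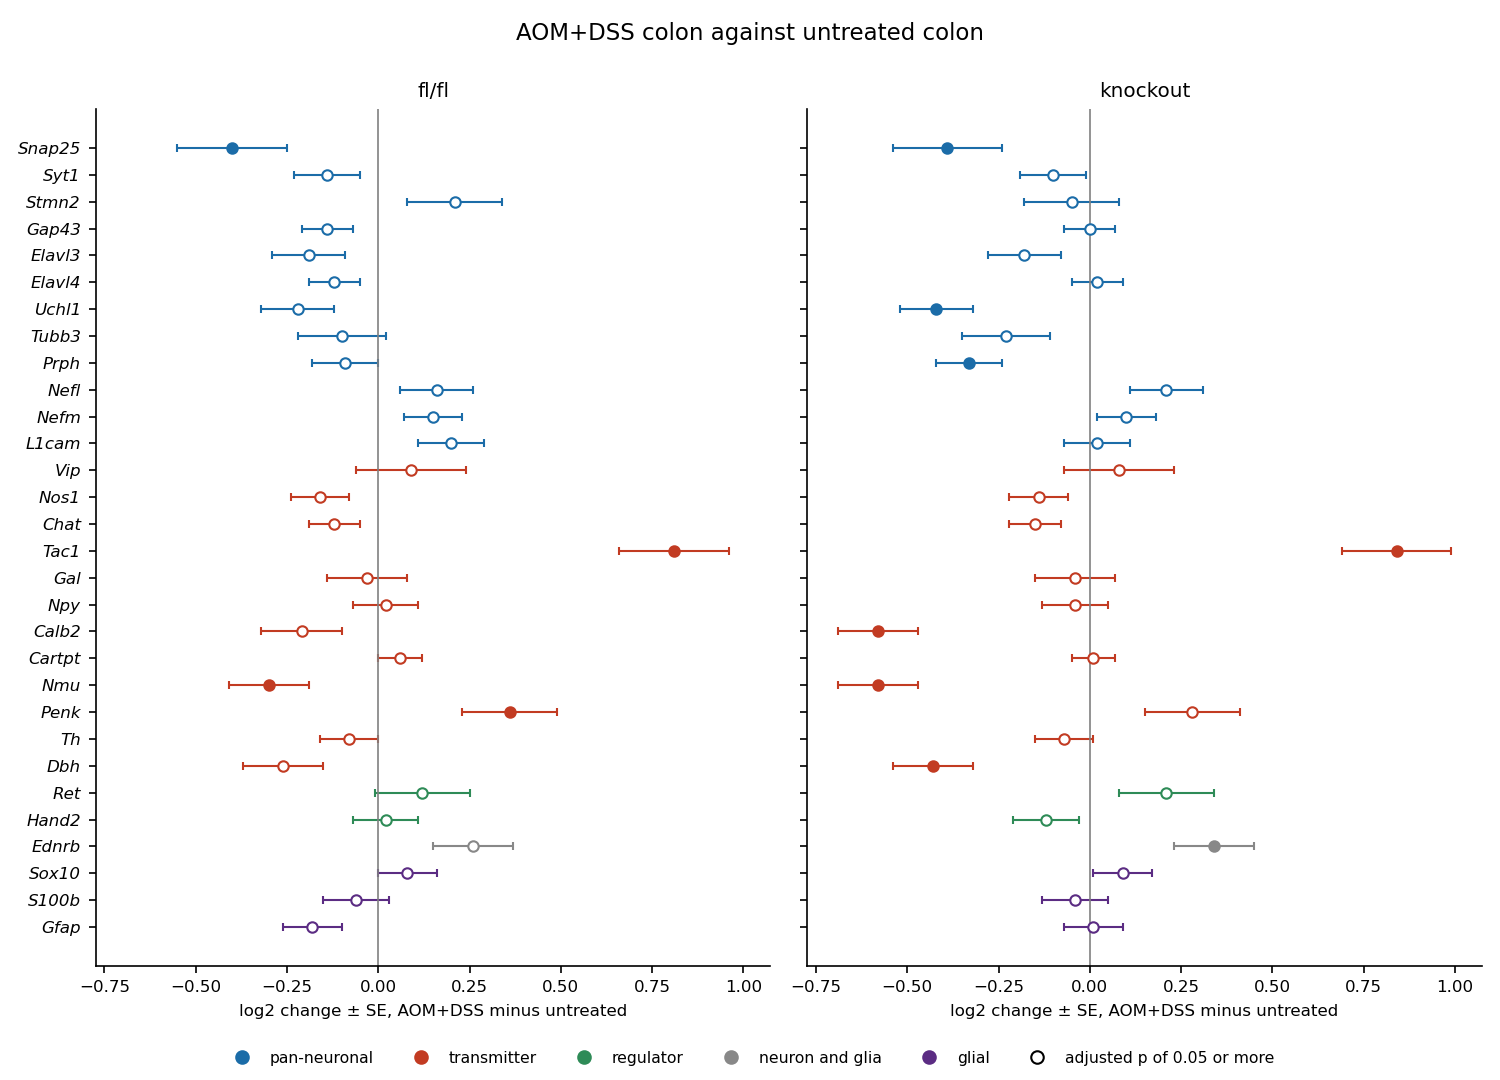
Log2 change from untreated to AOM+DSS colon for the 30 genes (points, with SE as bars), fl/fl mice on the left and knockout mice on the right, coloured by class and open where the adjusted p was 0.05 or more. Tac1 stands apart on the right at 0.81 and 0.84, and the glial genes at the bottom are all open.

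Snap25 measured 8.72 to 9.41 (median 9.08) in untreated fl/fl and 8.78 to 9.42 (median 9.11) in untreated knockout colon, overlapping the AOM+DSS values given above. It changed by -0.40 ± 0.15 and -0.39 ± 0.15 (adjusted p = 0.0453 and 0.0371), and the fl/fl call was lost with array weights (adjusted p = 0.0594) and the knockout call with the smooth muscle covariate (-0.26, adjusted p = 0.105). Nmu measured 6.12 to 6.79 (median 6.50) and 5.89 to 6.52 (median 6.20) in fl/fl mice, and 6.34 to 7.63 (median 6.66) and 5.62 to 6.63 (median 6.14) in knockout mice. It changed by -0.30 ± 0.11 and -0.58 ± 0.11 (adjusted p = 0.0492 and 4.59e-05), and the fl/fl call was lost without knockout tumor replicate 8, which entered the shared spread (adjusted p = 0.0518). Calb2 measured 6.63 to 7.06 (median 6.81) in untreated knockout colon and changed by -0.58 ± 0.11 after AOM+DSS (adjusted p = 4.67e-05), against -0.21 ± 0.11 in fl/fl mice, which did not pass (adjusted p = 0.182). Dbh changed by -0.43 ± 0.11, Uchl1 by -0.42 ± 0.10 and Prph by -0.33 ± 0.09 in knockout mice, all with overlapping ranges. The untreated knockout replicate 2 stood highest of its group in Tubb3, L1cam, Gal and Nmu, and a fit without it, chosen after seeing the data, gave 8 of the 30 genes in knockout mice, among them Penk (0.33, adjusted p = 0.0493) and no longer Snap25 (-0.36, adjusted p = 0.0695).

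By limma 0 of the 3 glial genes passed after AOM+DSS in either genotype, beside 22.7% and 30.2% of all genes in fl/fl and knockout mice. At an unadjusted p under 0.05 there were 1 (Gfap) and 0 of the 3, beside 35.6% and 38.8% of all genes. Sox10 measured 0.08 ± 0.08 and 0.09 ± 0.08, S100b -0.06 ± 0.09 and -0.04 ± 0.09, and Gfap -0.18 ± 0.08 and 0.01 ± 0.08, of which Gfap passed in fl/fl mice when arrays were shifted to one median (adjusted p = 0.0274). Of the 9 further glial genes, 2 were higher and 1 lower in fl/fl and 3 higher and 1 lower in knockout mice. The median change of that list was 0.06 and 0.03, and its lowest change was -0.33 and -0.24. Cdh19 was higher by 0.57 ± 0.12 and 0.53 ± 0.12 and Sox2 by 1.24 ± 0.29 and 1.30 ± 0.29. Of the 32 further neuronal genes, 1 was higher and 4 lower in fl/fl and 1 higher and 10 lower in knockout mice. The synaptic vesicle gene Syn2 changed by -0.73 and -0.71, and Ddc, which makes dopamine and serotonin, by -0.57 and -0.56. Calcb, a calcitonin gene-related peptide, was higher by 2.64 ± 0.56 and 2.69 ± 0.56 and ranged from 6.62 to 11.24 in fl/fl AOM+DSS colon. Nrg1 was higher by 1.03 ± 0.16 and 1.10 ± 0.16. Snap25 minus S100b fell from 3.78 ± 0.27 to 3.45 ± 0.33 (SD, n = 10 each) in fl/fl mice and from 3.86 ± 0.21 to 3.51 ± 0.30 in knockout mice (permutation test, adjusted p = 0.0398 and 0.0227), and Elavl4 minus Sox10 did not pass (differences of -0.20 and -0.07, permutation test, adjusted p = 0.101 and 0.475).

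Genes of other cell types moved with AOM+DSS. All 6 macrophage genes were higher in both genotypes (medians 0.90 and 0.87), T cell genes were higher in 4 of 7 and 7 of 7, and fibroblast genes in 6 of 8 and 7 of 8. The squamous epithelium list, of cells found beyond the anorectal junction, was higher in 6 of 9 genes in both genotypes, and its mean ranged from 5.03 to 8.37 in fl/fl and from 4.94 to 7.77 in knockout untreated colon, and from 5.01 to 9.21 in fl/fl and from 5.09 to 9.27 in knockout AOM+DSS colon. The part of these cells in the changes of Tac1, Penk, Ednrb, Sox2 and Calcb was not tested. None of the 12 smooth muscle genes passed in fl/fl mice, and 2 were lower in knockout mice.

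Between genotypes none of the 30 genes passed in any condition. By limma over all genes, 0 of 30 passed in untreated colon, in AOM+DSS colon and in tumors, beside 0.00451%, 0.541% and 0.00902% of all genes. At an unadjusted p under 0.05 there were 2, 0 and 2 of the 30, beside 5.02%, 13.1% and 4.46% of all genes, which is no result about these genes. They were Calb2 (0.25, 95% interval 0.03 to 0.48) and Cartpt (0.13, interval 0.00 to 0.25) in untreated colon, and Ret (-0.32, interval -0.59 to -0.04) and L1cam (-0.23, interval -0.43 to -0.03) in tumors. Over the 30 genes the log2 differences ran from -0.13 to 0.27 in untreated colon, from -0.12 to 0.30 in AOM+DSS colon and from -0.32 to 0.22 in tumors. The lowest and highest ends of the 30 genes' 95% intervals were -0.29 and 0.57, -0.37 and 0.60, and -0.59 and 0.47.

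The test of the responses themselves gave no call either. The genotype difference of the AOM+DSS response and that of the tumor response each passed for 0 of 30 genes by limma, beside 0% of all genes. At an unadjusted p under 0.05 there were 1 and 2 of the 30, beside 6.09% and 6.63% of all genes. The values were, for Calb2, -0.37 ± 0.16 in the AOM+DSS response (adjusted p = 0.803), and, for Ret, -0.46 ± 0.19 (adjusted p = 0.659) and, for Cartpt, -0.20 ± 0.09 (adjusted p = 0.715) in the tumor response. The calls that passed in 1 genotype alone, those of Penk, Ednrb, Calb2, Dbh, Uchl1 and Prph after AOM+DSS and of Npy, Cartpt and Sox10 in tumors, are therefore not shown to differ between genotypes.

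Within groups the genes varied together to different degrees, given here as a description over the 57 samples with group means removed. The median r over the 66 pairs of pan-neuronal genes was 0.17 and over the 72 pairs of a neuronal with a glial gene 0.08. Snap25 with Uchl1 (r = 0.60), Snap25 with Calb2 (0.58) and Vip with Tac1 (0.58) were the closest pairs of the 30 genes.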

How the data were processed

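RNA of 57 mouse colon and tumor samples was hybridised to Affymetrix arrays from 250 ng of total RNA, per the labels' protocols. The deposited log2 values cover 41345 probe sets and were made with RMA by the authors, per the submitters' processing notes, with no version given in the sources used here; RMA draws the arrays' distributions together, so a shift of all genes would not be seen. Of these probe sets 23521 had 1 gene symbol in the platform table, 1814 had several and 16010 none. The brightest single-symbol probe set of each of 22180 genes was used, with no filter.

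All 57 arrays were fitted in limma 3.58.1 (R 4.3.3) with 6 group means, 51 residual degrees of freedom before moderation, and two-sided p-values of the contrasts were adjusted over the 22180 genes (Benjamini-Hochberg) and called under 0.05. A range stands apart when no sample of 1 group reaches the other. The labels call the samples biological replicates. The genes and lists were chosen with earlier results of these data known. Members were all accounted for; of other lists, up to 3 genes with the smallest adjusted p in the comparison described were named, and Insr as a check. Log2 differences of gene pairs were tested by permuting samples, exactly for tumors and with 100000 permutations otherwise, and correlations by 100000 permutations within groups. Steps were tested on simulated data. Alternatives were array shifts to one median, a second quantile normalization, array weights, an intensity trend with robust moderation, mean of probe sets, compared groups alone, leaving out the dimmest 25% of genes, replicate block, single arrays left out, and cell-type covariates. Promoter sequences are RefSeq's.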

Additional observations from a re-analysis of the deposited data

Results flagged for a closer look

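In 204 sets of 8 to 10 samples searched (a gene or class mean in 1 group), 20 had 1 extreme sample whose gap to the next was large for the range, and chance flags about 1 in 20 sets, or 10.2 of 204. Untreated knockout replicate 2 was the highest of its group in 5 of them: Tubb3 at 7.85, L1cam at 9.47, Gal at 6.88, Nmu at 7.63 and the mean of the transmitter class at 7.09. Among fl/fl AOM+DSS colons, replicate 1 was high in Gap43 (6.73) and replicate 4 in Ednrb (9.60), and replicate 9 was low in Elavl3 (5.35), replicate 2 in Prph (6.34) and the transmitter mean (6.39), and replicate 8 in Npy (5.80). Among knockout AOM+DSS colons, replicate 7 was low in Syt1 (6.81), replicate 2 in Cartpt (5.90) and replicate 8 in Dbh (6.10). Among fl/fl tumors, replicate 7 was high in L1cam (8.85) and replicate 4 was high in Npy (6.99) and low in Chat (5.02). Among knockout tumors, replicate 8 was high in Npy (6.49) and Dbh (6.23), and replicate 3 in Th (5.74).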

How the results depend on the processing

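Without cell-type covariates, 615 recomputed values kept their direction and side of the threshold, 15 newly passed, 11 no longer did, and none reversed. Shifting arrays to one median gave 7 passing genes after AOM+DSS in fl/fl mice in place of 4. A second quantile normalization brought Elavl4 minus Sox10 past the threshold in tumors, at -0.28 (permutation, adjusted p = 0.0132) in fl/fl and -0.18 (0.0317) in knockout mice. The smooth muscle covariate left 8 and 10 passing genes in fl/fl and knockout tumors (8.99% and 9.19% of all genes) and reversed Gfap (0.06 and 0.12) and, in knockout mice, Npy (0.06); the enteroendocrine covariate, chosen after seeing the data, left 14 in each (20.4% and 25.3% of all genes) and reversed Gal (0.04) and Dbh (0.01) in knockout mice. With the replicate number as a block, the counts were 4, 8, 24 and 27, and no call changed; same-numbered samples correlated at 0.06 in the median of 65 pairs, with 22 over 0.1, so the numbers are not shown to pair samples. Without untreated knockout replicate 2, left out after seeing the data, the counts were 4, 8, 24 and 27, with Penk in and Snap25 out of the 8, and without knockout tumor replicate 8 they were 3, 8, 24 and 27. Leaving out the dimmest 25% of genes gave 22 and 25 in fl/fl and knockout tumors, beside 53.1% and 55.5% of the 16635 genes left. The counts were lower since Elavl4 and Nefm were not tested. The low signal of those genes limits the size of a fall that can be seen.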
